A study of Mus musculus with 30 samples.

Results

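The comparison set 5 MC38 tumours taken 7 days after mXTX301, a masked mouse interleukin-12 (IL-12) molecule given at 0.39 mg/kg, directly against 5 MC38 tumours taken 7 days after an unmasked IL-12 positive control given at 0.03 mg/kg. These 10 libraries, out of 30 in the study, were taken by their treatment and day labels. MC38 is a mouse colon carcinoma line, and 0.5 M cells were placed under the skin of the right flank of 10-week-old female C57BL/6J mice, with no genetic change named for mice or cells. A single intravenous injection was given once tumours measured 200 to 300 mm3. The other groups were 5 vehicle tumours at day 7, used here as the background level, and the matching 15 tumours at day 4. Each library came from a different mouse, and polyadenylated RNA of the tumour tissue was sequenced. Only 1 dose of each drug was used and the masked dose was 13 times the unmasked one, so agent and dose cannot be told apart in any difference or likeness below.

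IL-12 is a cytokine that binds a receptor of paired chains on activated T cells and natural killer (NK) cells, works through the kinases Jak2 and Tyk2 and the factor Stat4, and makes these cells release interferon-gamma. Interferon-gamma then acts, in part through the factor Irf1, on tumour cells, macrophages and stroma, and raises GTPases of the guanylate-binding and immunity-related families, MHC genes and the chemokines Cxcl9 and Cxcl10. A masked cytokine carries a blocking part that proteases of the tumour, matrix metalloproteinases among them, are meant to remove. The direct comparison asks whether the tumour transcriptome a week after the masked drug differed from that after the unmasked one.

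Promoters of interferon-gamma target genes are shown because the GTPase genes below shared the sign of their fitted differences. Each line gives the 250 bases upstream of the start used in the promoter table, from RefSeq on build GRCm38.p6, 5′ to 3′ on the gene's strand. For Gbp2b that start lies a little inside the RefSeq bounds of the gene, and the stretch ends within them. Capitals mark 2 motifs searched on both strands: GAS (gamma-activated site), TTCNNNGAA, which reads the same on both strands, and ISRE (interferon-stimulated response element), GAAANNGAAA. Irf1 is at chr11:53769764-53770013 (plus strand), Igtp at chr11:58199306-58199555 (plus), Gbp2b at chr3:142594597-142594846 (plus) and Cxcl10 at chr5:92348890-92349139 (minus).
Irf1: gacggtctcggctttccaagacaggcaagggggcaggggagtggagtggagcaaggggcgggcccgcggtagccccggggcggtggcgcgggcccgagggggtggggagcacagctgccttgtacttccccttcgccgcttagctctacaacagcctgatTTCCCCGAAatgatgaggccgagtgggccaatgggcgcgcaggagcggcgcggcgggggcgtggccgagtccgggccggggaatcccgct
Igtp: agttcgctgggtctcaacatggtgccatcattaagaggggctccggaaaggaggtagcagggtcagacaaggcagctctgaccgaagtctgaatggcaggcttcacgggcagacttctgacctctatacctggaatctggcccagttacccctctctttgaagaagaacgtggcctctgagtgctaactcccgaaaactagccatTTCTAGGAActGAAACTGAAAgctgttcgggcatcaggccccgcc
Gbp2b: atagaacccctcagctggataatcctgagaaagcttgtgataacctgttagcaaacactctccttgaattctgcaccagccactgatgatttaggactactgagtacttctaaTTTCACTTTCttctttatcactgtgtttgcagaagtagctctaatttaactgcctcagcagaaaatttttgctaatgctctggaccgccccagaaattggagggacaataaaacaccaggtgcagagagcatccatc
Cxcl10: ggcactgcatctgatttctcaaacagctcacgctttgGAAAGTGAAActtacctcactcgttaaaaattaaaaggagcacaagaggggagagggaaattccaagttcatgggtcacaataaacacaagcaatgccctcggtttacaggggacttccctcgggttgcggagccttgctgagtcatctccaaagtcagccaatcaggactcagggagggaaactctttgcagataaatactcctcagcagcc
The Irf1 stretch held a GAS match and the Igtp stretch held both motifs within its last 45 bases. In the Gbp2b stretch the ISRE match was on the opposite strand, and in Cxcl10 it lay 213 to 204 bases upstream. Of the 18 GTPase genes tested, 11 had a promoter in the table, and 10 of these 11 held an ISRE match and 6 a GAS match. Over all 27025 genes of the promoter table the shares were 3.46% and 8.13%. Of the interferon-gamma response genes, 3 of 20 promoters held an ISRE match and 5 a GAS match, and of the MHC class I presentation genes 2 of 16 held each. In the T cell genes 0 of 15 promoters held an ISRE match and 1 a GAS match. A match is a stretch of letters and was not tested for binding. The GTPase list was drawn up as interferon-inducible genes, so its matches do not bear on the difference between the drugs.

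The 15 day 7 libraries held 48.3 to 82.8 M counts, with 58.4 ± 7.34 M for mXTX301, 63.2 ± 3.31 M for the unmasked control and 69.4 ± 8.35 M for vehicle (SD, n = 5). The drug groups differed by -4.84 M counts (two-sided exact permutation test, p = 0.198, smallest p possible 0.00794). Libraries of the same group differed beyond counting noise in 53.5% to 81.8% of genes with a mean count of at least 50, so no library was a copy of another. Epidermal genes such as Krt1, Krt5 and Krt14 led the first principal component of the 10 libraries, with 63% of the variance of their 1000 most variable genes, and muscle genes such as Myh4 and Acta1 led the second, with 13.6%. The summed skin epithelium genes reached 1210 and 277 CPM (counts scaled to library size) in mXTX301 replicates 1 and 3, 798 and 1180 CPM in unmasked replicates 3 and 5, and 1490 CPM in vehicle replicate 5. These are called skin-rich libraries, being over 10 times the median library. At day 4, mXTX301 replicate 3 (457 CPM) and unmasked replicate 5 (740 CPM) were skin-rich too. Over the same 1000 genes, the distance between 2 libraries (root mean square log2 difference) had a median of 2.19 across the drug groups, 2.42 within mXTX301 and 2.38 within the unmasked control. Epidermal and muscle genes led the variance of these genes, so the distances cannot show whether the drugs acted alike. Colon epithelial markers did not mark these tumours: the 11 tested of 16 summed to at most 26.2 CPM in any day 7 library.

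No gene passed the test between masked and unmasked IL-12 at day 7. Of 15482 genes tested, 0 were called (0%) at an adjusted p under 0.05, by the edgeR quasi-likelihood test with Benjamini-Hochberg adjustment over all genes, and 898 (5.8%) had an unadjusted p under 0.05, 427 of them higher in mXTX301 and 471 higher in the unmasked control. On the same groups limma-voom called 0 and DESeq2 14, and without mXTX301 replicate 3 the edgeR test called 5. The smallest adjusted p was 0.227. Against vehicle, the same fit called 3985 genes higher (25.7%) and 3508 lower (22.7%) for mXTX301, and 3595 higher (23.2%) and 3378 lower (21.8%) for the unmasked control. Those comparisons share the vehicle libraries and are given only to show each drug's own level of change. Their shares, and the 5.8% with an unadjusted p under 0.05, are the background for the list counts below.

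The 95% intervals give, for each gene alone and without adjustment over genes, the range of differences that the values leave. They do not set the size of difference that a call needs. The median log2 fold change, mXTX301 minus unmasked control throughout, was 0.003 over all genes, and its 5th and 95th percentiles were -0.52 and 0.46. For 12265 genes (79.2%) the 95% interval lay within 2-fold in either direction, and for 10271 within 1.5-fold. For the other 3217 genes a difference beyond 2-fold was inside the interval. Complete separation of the 5 and 5 libraries was seen in 86 genes with mXTX301 higher (0.555%) and 121 with the unmasked control higher (0.782%). A missed threshold does not show that the drugs act alike. Nor does an interval within 2-fold, where the change against vehicle was itself under 2-fold. With mXTX301 and the unmasked control, the median log2 change against vehicle was 0.78 and 0.78 for interferon-gamma response genes. It was 0.64 and 0.52 for MHC class I presentation genes.

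The core of the IL-12 to interferon-gamma axis was high in all 10 drug-treated tumours. Ifng, the gene of interferon-gamma itself (gene 15978, on the plus strand of mm10 chromosome 10 at 118441046 to 118445894), was at 7.26, 4.66, 8.79, 12.9 and 8.83 CPM in mXTX301 replicates 1 to 5. In the unmasked control it was at 3.09, 5.88, 4.71, 9.07 and 7.58 CPM. Vehicle tumours ran from 0.0777 to 0.397 CPM, so every drug library lay above every vehicle library, while the drug groups overlapped. The direct difference was 0.48 (log2, SE 0.46, 95% interval -0.46 to 1.43, edgeR adjusted p = 0.91). Against vehicle, Ifng rose 32.8-fold with mXTX301 (edgeR adjusted p = 1.36e-07) and 23.4-fold with the unmasked control (adjusted p = 5.54e-07).

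**Figure D1:**
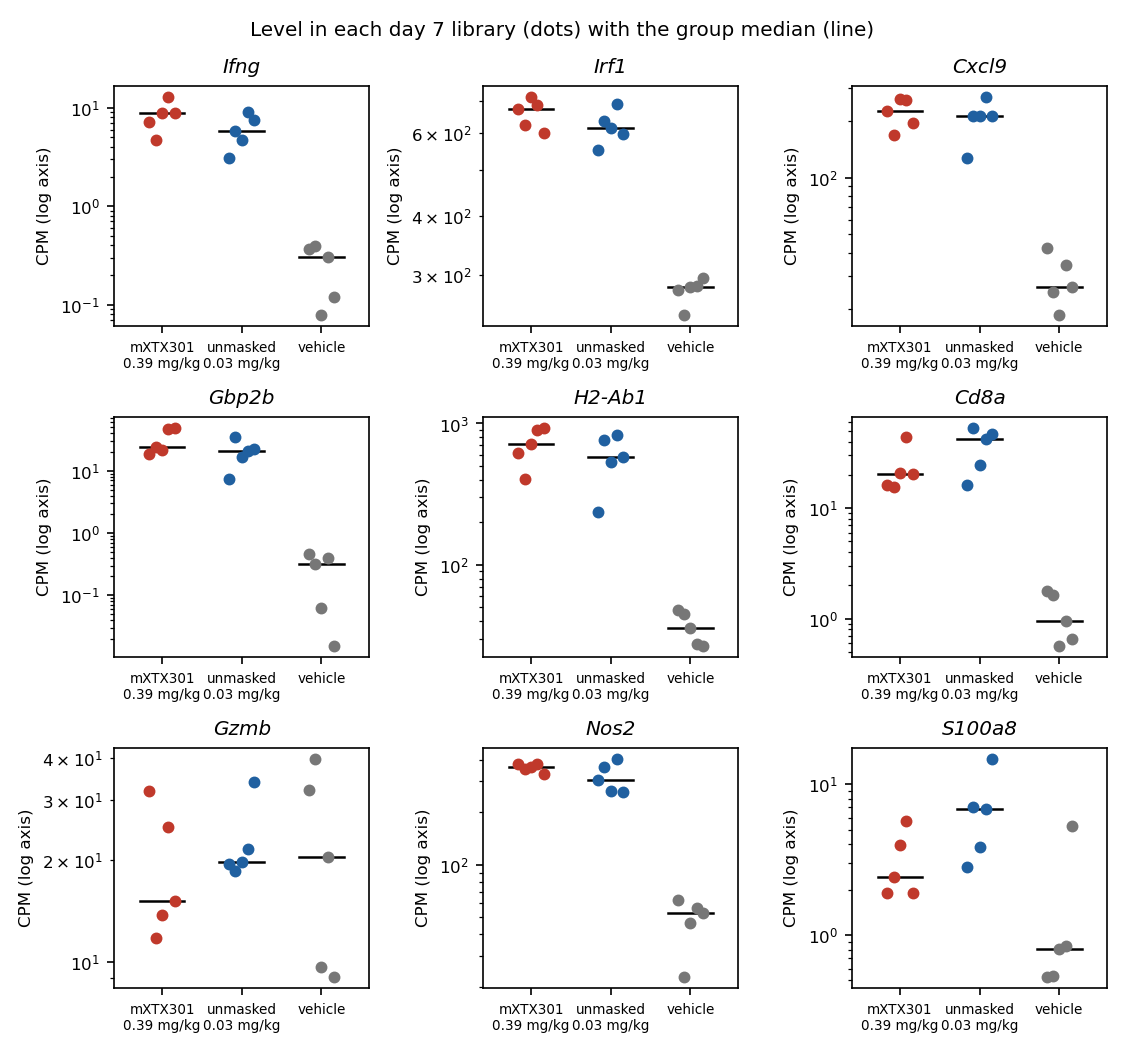
Level of 9 genes in each of the 15 day 7 libraries, in CPM on a log axis, by group; dots are libraries and the line is the group median. Ifng, Irf1, Cxcl9, Gbp2b, H2-Ab1, Cd8a and Nos2 were higher in every drug library than in any vehicle library, and the drug groups overlapped for all 9 genes.

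Among receptor and signalling genes, Il12rb2, the inducible chain of the IL-12 receptor, was at 2.04, 1.43, 3.52, 5.16 and 2.15 CPM in mXTX301 and 2.09, 5.78, 3.22, 5.37 and 7.09 CPM in the unmasked control. The groups overlapped, with 3 mXTX301 libraries near the lowest unmasked one, and the difference was -0.72 (interval -1.53 to 0.08, edgeR adjusted p = 0.871). Tbx21, the transcription factor gene of T helper 1 cells, differed by -0.22 (interval -1.01 to 0.57). Of 17 IL-12 receptor and signalling genes, 0 were called between the drugs, 12 had intervals within 2-fold, and the median was 0.02. Against vehicle 14 of the 17 rose with each drug, and 1 fell with mXTX301. Over all genes, 25.7% rose and 22.7% fell with mXTX301, and 23.2% rose with the unmasked control. Of the 5 IL-12 family cytokine genes, 0 were called and the smallest p was that of Il23a (-0.45, adjusted p = 0.871).

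Interferon-gamma response genes had fitted differences of -0.27 to 0.30 between the drugs. Irf1, the transcription factor that relays the interferon-gamma signal (gene at chromosome 11, 53770014 to 53778374, plus strand), was at 672, 624, 714, 688 and 600 CPM in mXTX301 and 552, 636, 614, 689 and 597 CPM in the unmasked control, against 246 to 296 CPM in vehicle. Its difference was 0.09 with an interval of -0.05 to 0.24. Cxcl9, a chemokine that draws activated T cells, was at 170 to 265 CPM in mXTX301 and 127 to 270 CPM in the unmasked control, and differed by 0.11 (interval -0.35 to 0.56). Cxcl10, a chemokine with the same receptor, differed by 0.10 (interval -0.23 to 0.43). Its log2 change against vehicle was just 0.53 with mXTX301 and 0.43 with the unmasked control, so the interval reaches differences of about that size. The vehicle libraries, at 407 to 855 CPM of Cxcl10, overlapped both drug groups. Cd274, which encodes the checkpoint ligand PD-L1, differed by 0.07 (interval -0.29 to 0.43). Ido1, a tryptophan-degrading enzyme, differed by 0.08 but less tightly (interval -0.65 to 0.81). All 28 interferon-gamma response genes tested had intervals within 2-fold, 19 were above 0 and the median was 0.06. Against vehicle 20 rose with mXTX301 and 22 with the unmasked control (25.7% and 23.2% of all genes), and 0 fell with either.

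The interferon-inducible GTPases, cell-autonomous defence proteins, had fitted differences of 1 sign: all 18 tested genes had a fitted difference above 0, from 0.19 for Gbp5 to 0.65 for Gbp2b, with a median of 0.26. Over all genes tested 49.3% were below 0 and the median was 0.003. None of the 18 was called, while 6 of 18 had an unadjusted p under 0.05, against 5.8% of all genes. Igtp was at 639 to 699 CPM in mXTX301 and 428 to 598 CPM in the unmasked control, so the groups did not overlap, and it differed by 0.32 (interval 0.08 to 0.56, edgeR adjusted p = 0.808). Ifi47 was at 206, 199, 210, 238 and 227 CPM in mXTX301 and 162, 184, 182, 210 and 172 CPM in the unmasked control, and differed by 0.25 (interval 0.08 to 0.41, adjusted p = 0.738). Gbp2b (gene 14468) was at 18.9, 24, 21.4, 47 and 49 CPM in mXTX301 and 7.35, 35.4, 16.5, 20.6 and 22.2 CPM in the unmasked control, against at most 0.465 CPM in vehicle, and its interval was wide (-0.34 to 1.64). All 18 rose against vehicle with each drug (25.7% of all genes with mXTX301 and 23.2% with the unmasked control). The list median stayed between 0.19 and 0.34 over 21 other settings. These genes were read in the same libraries, as in the lists below, so 1 shared sign is not 18 separate results. Several of these genes are near copies of each other, as Tgtp1 and Tgtp2 are, and reads shared between copies may be split between them.

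Of 24 type I interferon response genes 0 were called, 23 had intervals within 2-fold and the median was -0.01. Against vehicle 3 of these rose and 12 fell with mXTX301, and 1 rose and 9 fell with the unmasked control. Over all genes, 25.7% rose and 22.7% fell with mXTX301, and 23.2% rose and 21.8% fell with the unmasked control.

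**Figure D2:**
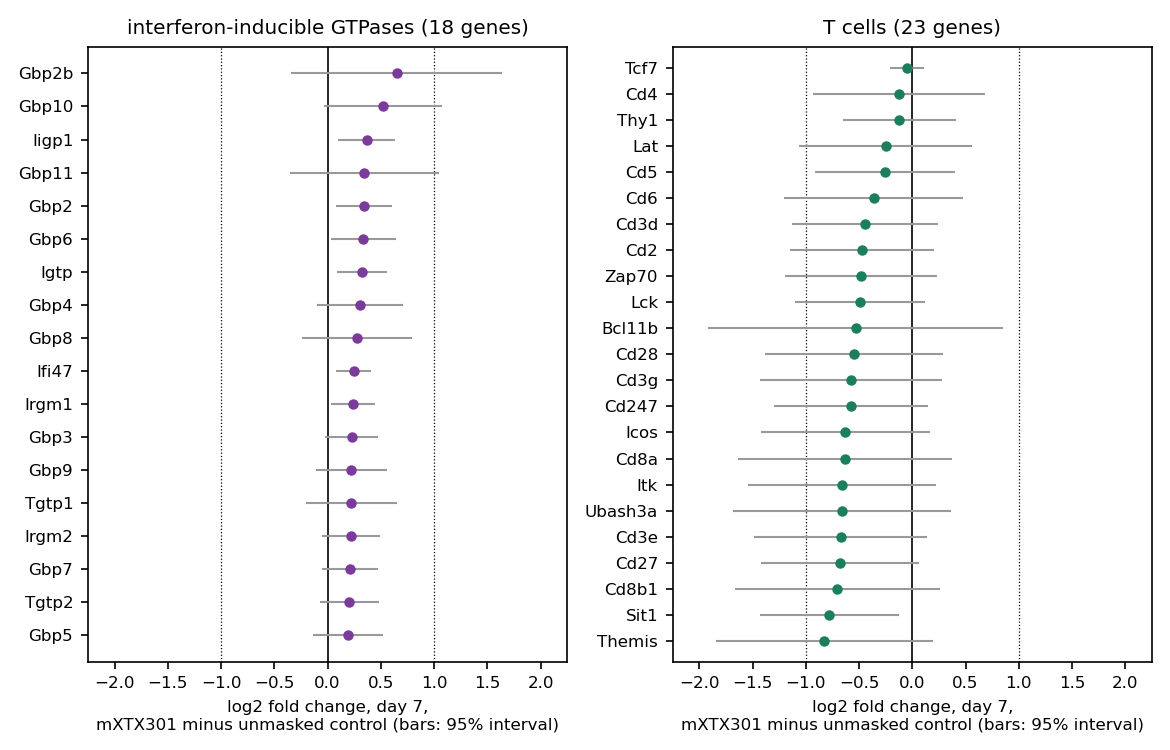
Fitted log2 fold change, mXTX301 minus unmasked control at day 7, for each tested interferon-inducible GTPase and each tested T cell gene; bars are 95% intervals and dotted lines mark 2-fold. All 18 GTPase points lie above 0 and all 23 T cell points below it, and no gene of either list was called. Points of a list come from the same libraries and are not separate results.

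Antigen presentation genes were high after both drugs. H2-K1, a classical MHC class I heavy chain, was at 4214 to 4828 CPM in mXTX301 and 3930 to 4529 CPM in the unmasked control, and its difference of 0.08 had an interval of -0.08 to 0.23. Of the 19 MHC class I presentation genes, 18 were above 0, all 19 had intervals within 2-fold and the median was 0.06. The smallest p among them was that of Psmb8, an immunoproteasome subunit, with a difference of 0.17 (adjusted p = 0.742). H2-Ab1, an MHC class II beta chain, was at 622, 408, 719, 895 and 930 CPM in mXTX301 and 236, 766, 538, 828 and 580 CPM in the unmasked control, against 26.5 to 47.5 CPM in vehicle. Unmasked replicate 1 and mXTX301 replicate 2 were the lowest of their groups, and the difference was 0.28 (interval -0.37 to 0.92). Ciita, the transactivator on which MHC class II transcription depends, differed by 0.29 (interval -0.23 to 0.81), with the same libraries lowest. The 12 MHC class II presentation genes had a median of 0.26, or 0.07 without unmasked replicate 1, with 10 above 0 and 11 intervals within 2-fold. With each drug 11 of 12 rose against vehicle (25.7% of all genes with mXTX301 and 23.2% with the unmasked control).

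T cell genes had the opposite sign from the GTPases. All 23 tested genes had a fitted difference below 0 (over all genes, 49.3%), from -0.83 for Themis to -0.05 for Tcf7, with a median of -0.55. None was called, and 1 of 23, Sit1, had an unadjusted p under 0.05 (-0.78, interval -1.43 to -0.13, edgeR adjusted p = 0.857). Cd8a, the alpha chain of CD8, found on cytotoxic T cells (gene at chromosome 6, 71373427 to 71379171, plus strand), was at 16, 15.5, 20.9, 44.5 and 20.5 CPM in mXTX301 and 16.1, 53.2, 24.5, 41.9 and 46.6 CPM in the unmasked control, against 0.56 to 1.77 CPM in vehicle. Just mXTX301 replicate 4 stood with the 3 high unmasked libraries. Unmasked replicate 1 stood with the low mXTX301 libraries, and unmasked replicate 3, at 24.5 CPM, was just above them. The Cd8a difference was -0.63 with an interval of -1.64 to 0.37 (edgeR adjusted p = 0.9), which holds both equal levels and a 2-fold lower level after mXTX301. Cd3e, a chain of the T cell receptor complex, was at 3.51 to 8.53 CPM in mXTX301 and 4.04 to 12.6 CPM in the unmasked control, and differed by -0.67 (interval -1.48 to 0.14). Cd4 differed by -0.12 (interval -0.93 to 0.69) and Foxp3, the factor of regulatory T cells, by 0.06 (interval -0.81 to 0.93). Only 4 of the 23 intervals lay within 2-fold, so these data leave a wide range for T cell genes. The list level, the mean log2 CPM of its members, ran from 1.80 to 3.05 in mXTX301 and from 1.82 to 3.30 in the unmasked control. That level differed by -0.46 between the drugs, with an SD within groups of 0.55. All 23 genes share these libraries, so 1 sign across them is not 23 separate results. In whole tumour tissue, fewer T cells and less RNA per T cell cannot be told apart, and the same holds for each cell type below.

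Genes of killing and NK cells were mostly below 0 too, with wide intervals. Gzmb, which encodes granzyme B, was at 31.9, 11.8, 13.8, 25.1 and 15.1 CPM in mXTX301, 19.4, 18.6, 19.7, 21.6 and 33.9 CPM in the unmasked control and 9.01 to 39.7 CPM in vehicle. All 3 groups overlapped, and the difference between the drugs was -0.21 (interval -1.06 to 0.63). Prf1, the pore-forming partner of granzymes, differed by -0.52 (interval -1.56 to 0.51). Ncr1, an NK cell receptor, differed by -0.24 (interval -1.21 to 0.74). Of 19 cytotoxic effector genes, 15 were below 0, 8 intervals lay within 2-fold and the median was -0.39. That median was -0.11 without the skin-rich libraries and -0.02 without unmasked replicate 5 alone. Of 17 NK cell genes tested, 15 were below 0, 5 intervals lay within 2-fold and the median was -0.24, between -0.47 and -0.14 over the 21 other settings. Of 14 inhibitory receptors and ligands, 10 were below 0 with a median of -0.17 (-0.36 to -0.06 over those settings), and the members with an unadjusted p under 0.05 included Tigit, a checkpoint receptor of T and NK cells (-0.76, adjusted p = 0.858). Against vehicle 13 of the 14 rose and 1 fell with each drug. Over all genes, 25.7% rose and 22.7% fell with mXTX301, and 23.2% rose and 21.8% fell with the unmasked control.

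Macrophage genes did not separate the drugs, while single monocyte and neutrophil genes were among the larger fitted differences. Of 21 macrophage genes all rose against vehicle with each drug (25.7% of all genes with mXTX301 and 23.2% with the unmasked control). Between the drugs 19 intervals lay within 2-fold, with a median of -0.04, or 0.11 without the skin-rich libraries. Nos2, the inducible nitric oxide synthase of interferon-activated macrophages, was at 332 to 379 CPM in mXTX301 and 261 to 403 CPM in the unmasked control, against 22.6 to 62.9 CPM in vehicle, and differed by 0.17 (interval -0.24 to 0.59). Arg1, the enzyme that competes for the same substrate, arginine, differed by 0.25 (interval -0.37 to 0.87). Il10, an anti-inflammatory cytokine gene, was at most 1.93 CPM in any day 7 library and differed by 0.13 (interval -0.87 to 1.14). Ccr2, the chemokine receptor of inflammatory monocytes (gene at chromosome 9, 124101918 to 124109140, plus strand), was at 32, 35.3, 27.6, 43.5 and 65.9 CPM in mXTX301 and 8.37, 16.5, 20.1, 31.2 and 22.2 CPM in the unmasked control. Unmasked replicate 4 alone exceeded the lowest mXTX301 library. Ccr2 differed by 1.05 (2.08-fold, interval 1.40 to 3.08-fold, edgeR adjusted p = 0.479) and was at 16.5 to 28.9 CPM in vehicle. The 14 monocyte genes had a median of 0.23, or 0.07 without unmasked replicate 1, with 9 above 0, 1 at an unadjusted p under 0.05 and 8 intervals within 2-fold.

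S100a8 and S100a9, which encode the calprotectin subunits of neutrophils and inflammatory monocytes, had fitted values well below 0 with wide intervals. S100a8 was at 1.9, 2.44, 3.92, 5.73 and 1.91 CPM in mXTX301 and 2.81, 7.05, 3.84, 6.85 and 14.7 CPM in the unmasked control, and differed by -1.15 (interval -2.33 to 0.03, edgeR adjusted p = 0.871), the smallest p of the 26 panel genes at 0.0556 unadjusted. Without unmasked replicate 5, a skin-rich library, the S100a8 difference was -0.69. S100a9 was at 1.48, 3.16, 4.35, 6.95 and 2.62 CPM in mXTX301 and 3.41, 9.31, 4.17, 11 and 20.6 CPM in the unmasked control, and differed by -1.39 (interval -2.74 to -0.03, adjusted p = 0.858). Retnlg, a resistin-like gene of neutrophils, was at 0.0153 to 0.112 CPM in mXTX301 and 0.135 to 0.617 CPM in the unmasked control, with no overlap. Vehicle was at 0.0162 to 0.0467 CPM, so all these levels were near the floor. Retnlg differed between the drugs by -2.58 (interval -3.78 to -1.38, edgeR adjusted p = 0.257), or -1.99 without the skin-rich libraries. Of the 12 neutrophil genes tested, 8 were below 0, 2 had an unadjusted p under 0.05 and the median was -0.19, between -0.32 and 0.05 over the other settings. The summed level of these genes was 147 to 245 CPM in mXTX301 and 212 to 257 CPM in the unmasked control.

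Growth and housekeeping genes mostly had intervals within 2-fold, a bound wider than the median change of each list against vehicle. Mki67, a marker of dividing cells, was at 330 to 388 CPM in mXTX301 and 340 to 459 CPM in the unmasked control and differed by -0.17 (interval -0.43 to 0.09). All 30 cell cycle genes had intervals within 2-fold, 24 were below 0 and the median was -0.07. Against vehicle 27 of the 30 fell with mXTX301 (22.7% of all genes) and 24 with the unmasked control (21.8%). The medians of these 30 genes against vehicle were -0.47 and -0.43. All 28 ribosomal protein genes had intervals within 2-fold, 26 were above 0 and the median was 0.15. An unadjusted p under 0.05 was found for 4 of the 28, against 5.8% of all genes. Of 21 cholesterol biosynthesis genes, 20 fell against vehicle with each drug (22.7% of all genes with mXTX301 and 21.8% with the unmasked control). Between the drugs 20 of the 21 had intervals within 2-fold, with a median of 0.10, or -0.03 without the skin-rich libraries. Fdft1, the squalene synthase gene, had the smallest p of these (0.48, interval 0.19 to 0.77, adjusted p = 0.67), with 4 of 5 unmasked libraries below every mXTX301 library. Mest, an imprinted gene, fell against vehicle with each drug, to 0.189 and 0.198 of the vehicle level for mXTX301 and the unmasked control, and differed between them by -0.06 (interval -0.66 to 0.53).

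**Figure D3:**
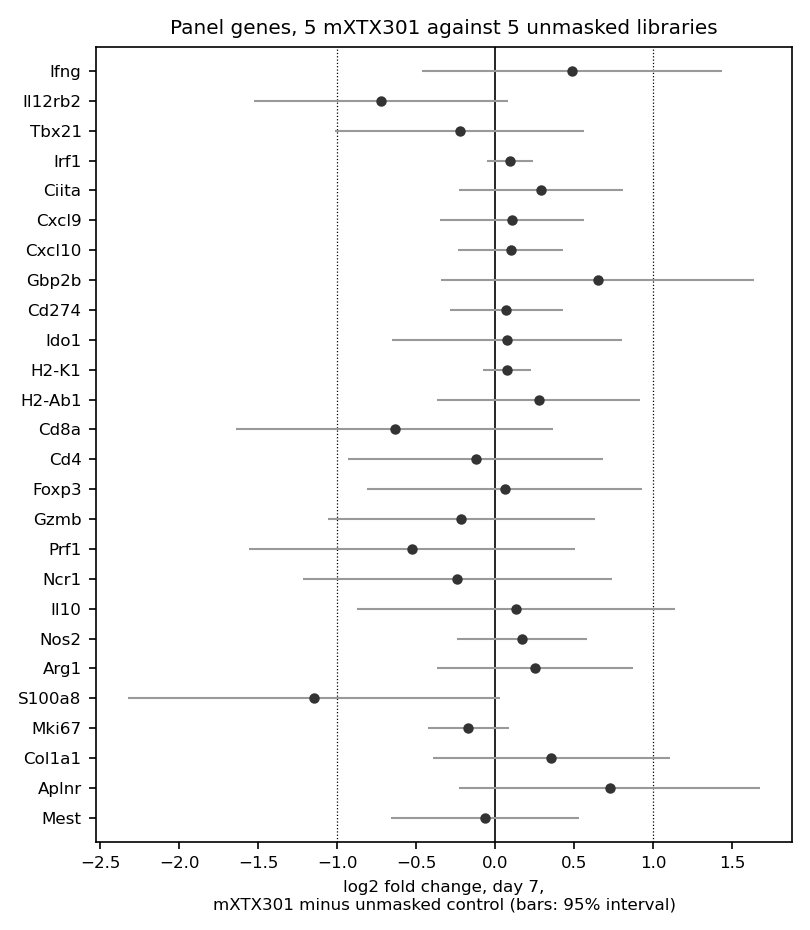
Fitted log2 fold change of the 26 panel genes, mXTX301 minus unmasked control at day 7, with 95% intervals; dotted lines mark 2-fold. All 26 intervals hold 0; 14 lie within 2-fold, among them Irf1, H2-K1 and Mki67, and the lowest point is S100a8 at -1.15.

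Matrix metalloproteinase genes, whose products can cut peptide linkers, were present after both drugs. Of 14 tested, 8 were above 0, 8 had intervals within 2-fold and the median was 0.09, or -0.02 without the skin-rich libraries. The list level ran from 5.06 to 5.80 in mXTX301 and from 5.30 to 6.02 in the unmasked control on the mean log2 CPM scale, against 4.12 to 4.73 in vehicle. Mmp10 had the smallest p (-1.56, interval -2.80 to -0.32, adjusted p = 0.853), at 0.23 to 1.39 CPM in mXTX301 and 0.929 to 3.55 CPM in the unmasked control.

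Genes of tissue around the tumour varied widely between libraries of the same group. Skeletal muscle genes summed to 1190, 131, 284, 18.9 and 33 CPM in mXTX301 and 229, 415, 570, 500 and 963 CPM in the unmasked control, so mXTX301 replicates 4 and 5 held little muscle RNA and replicate 1 the most of all. The muscle list level, in mean log2 CPM, differed by -2.44 between the drugs, with an SD within groups of 2.12. The 18 muscle genes were all below 0 with a median of -0.67, or -2.63 without the skin-rich libraries, 0 of 18 intervals lay within 2-fold, and Myh1, Myh2 and Tnnc2 were at 0 in the lowest mXTX301 library. Adipocyte genes summed to 373, 345, 352, 327 and 909 CPM in mXTX301 and 298 to 366 CPM in the unmasked control, and 13 of 14 were above 0 with a median of 0.74. Replicate 5 of mXTX301 stood alone there, and without it the median was -0.04. It was also the highest library for Aplnr, the apelin receptor of endothelium, at 22.6 CPM against 5.81 to 7.11 CPM in the other 4, and for Col1a1, a collagen of fibroblasts, at 1776 CPM against 746 to 1050 CPM. Aplnr differed by 0.73 (interval -0.23 to 1.68), or 0.14 without that library, and Col1a1 by 0.36 (interval -0.40 to 1.11), or 0.11 without it. Of 20 endothelial genes 17 were above 0 with a median of 0.21, or -0.13 without mXTX301 replicate 5. With the skin level as a covariate, and without the skin-rich libraries, 0 genes were called between the drugs. The fit without them had fewer libraries in each drug group (smallest edgeR adjusted p 0.751), so its lack of calls does not show that skin made no difference. The part of muscle and fat RNA in the differences of other genes was not tested.

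**Figure D4:**
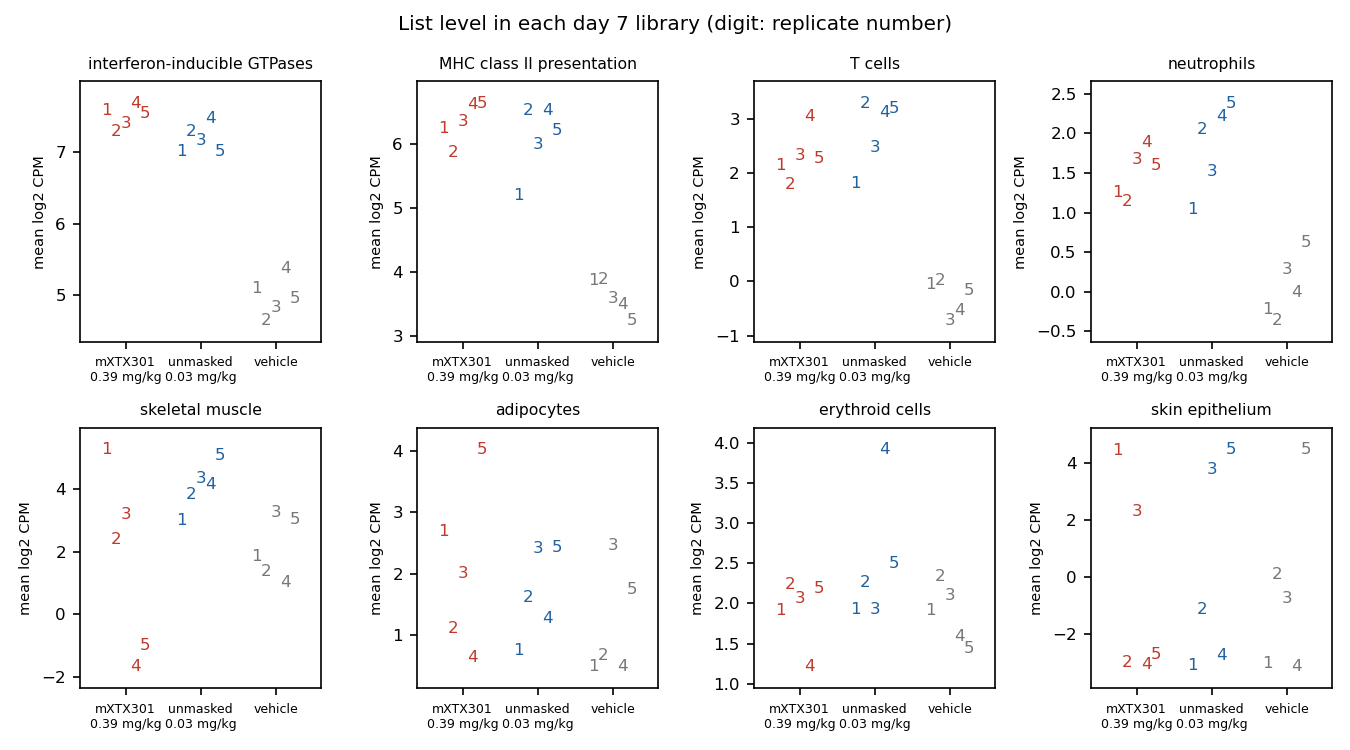
Level of 8 gene lists in each day 7 library, as the mean log2 CPM of the tested members; digits are replicate numbers. GTPase, MHC class II and T cell levels of the drug groups overlap and lie above vehicle, while muscle, adipocyte and skin levels spread widely within groups, with mXTX301 replicates 4 and 5 lowest for muscle and replicate 5 highest for adipocytes.

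Over all 48 lists, 723 of 788 distinct genes were tested, and 0 were called, against 0% of all genes. At an unadjusted p under 0.05 there were 51 list genes, or 7.05% of those tested, against the 5.8% of all genes. Intervals within 2-fold covered 484 of the 723 list genes (66.9%), against 79.2% of all genes, and 2 of the 723 separated the groups in each direction, against 0.555% of all genes with mXTX301 higher and 0.782% with the unmasked control higher. The ranges of the list level overlapped between the drug groups in all 48 lists.

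**Figure D5:**
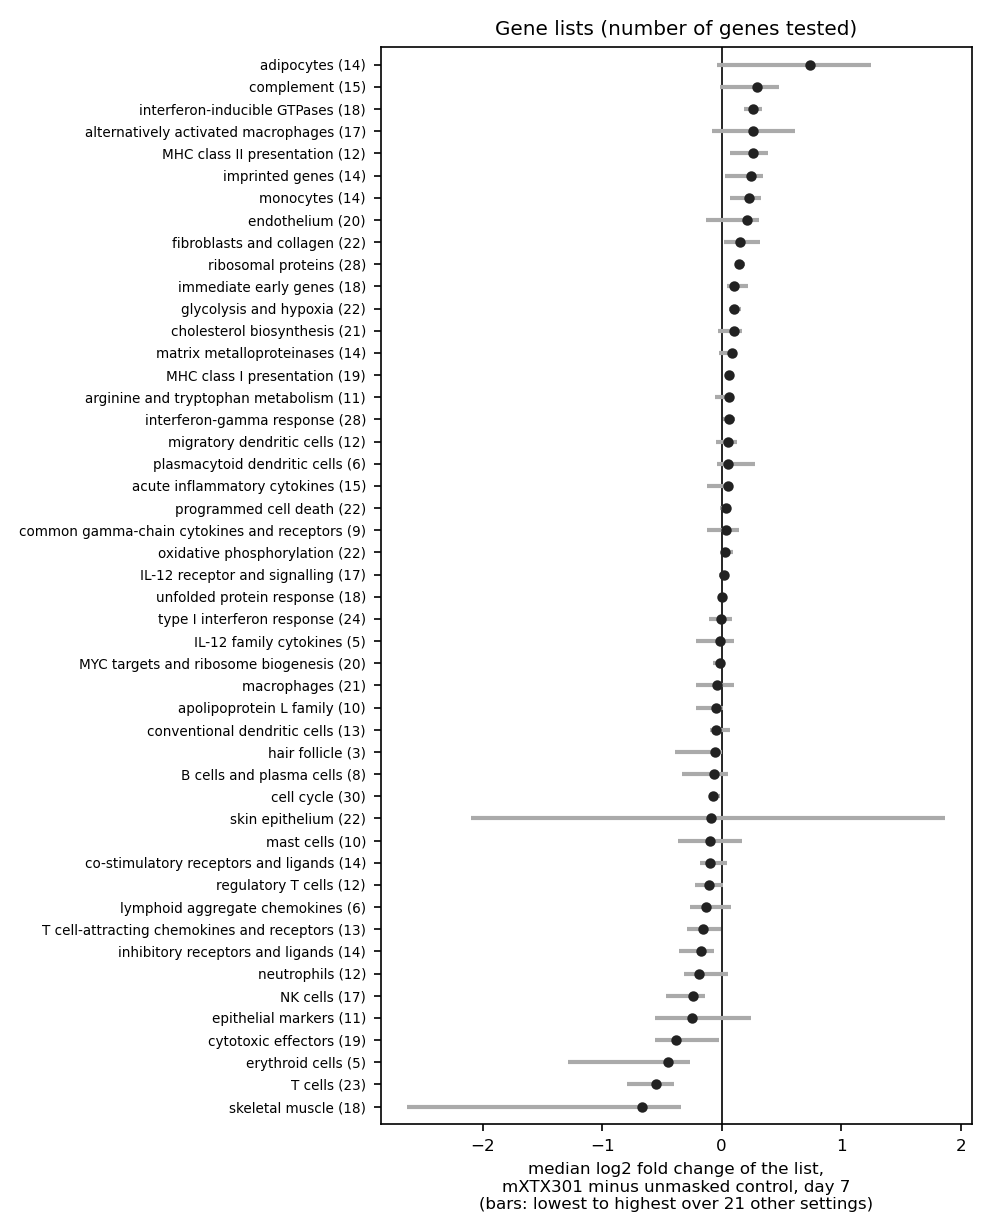
Median log2 fold change, mXTX301 minus unmasked control at day 7, of each of 48 gene lists (dots, with the number of genes tested); bars give the lowest and highest median over 21 other settings of the fit. Medians run from -0.67 for skeletal muscle (bar to -2.63) to 0.74 for adipocytes (bar to -0.04), and the GTPase and T cell bars stay on 1 side of 0 while the skin bar runs from -2.10 to 1.87.

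The genes nearest to a call in edgeR were a mixed set with changes of very different size, named here for their p after it was seen. DESeq2 called every gene named in this paragraph, with DESeq2 adjusted p from 0.00701 for Slc47a1 to 0.0465 for Sp140. Slc47a1, which encodes an organic cation exporter (gene at chromosome 11, 61343400 to 61378842, minus strand), was at 20.8, 11.2, 9.22, 8.02 and 15.5 CPM in mXTX301 and 6.71, 3.91, 5.85, 5.94 and 5.54 CPM in the unmasked control, with no overlap. It differed by 1.21 (2.31-fold, interval 1.65 to 3.25-fold, edgeR adjusted p = 0.227), and vehicle stood between, at 4.71 to 8.32 CPM, overlapping both groups. Tdrd3, Katna1, Usf1, Amz2 and Sp140 were above 0, each by 0.21 to 0.30 on the log2 scale, and their groups did not overlap. Sp140, a chromatin reader of immune cells, was at 181 to 211 CPM in mXTX301, 144 to 172 CPM in the unmasked control and 77.8 to 88.9 CPM in vehicle. Tbp, which encodes the TATA-binding protein, differed by -0.27, with 22.4 to 25.5 CPM in mXTX301 and 27.2 to 31.2 CPM in the unmasked control. Wdhd1, a DNA replication factor, and Socs4, a suppressor of cytokine signalling, lie next to each other on chromosome 14 on opposite strands and differed by -0.53 and -0.45, with adjusted p = 0.257 for each in edgeR. Pde12 differed by -0.49. Hif3a, a hypoxia-inducible factor gene, differed by -3.57, with unmasked replicate 1 at 5.53 CPM against 0.105 to 0.411 CPM in the other 4, and by -1.34 without that library.

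Other large fitted differences were smaller without a single library. Cd209a, a dendritic cell lectin gene, differed by 3.21 (interval 1.28 to 5.13, adjusted p = 0.67), with mXTX301 replicate 5 at 3.35 CPM and the other 4 at 0.139 to 0.322 CPM, and by 1.45 without that replicate. Apol11b, of the apolipoprotein L family, differed by -2.02 (adjusted p = 0.642), with unmasked replicate 4 at 13.1 CPM and the other 4 at 0.75 to 1.19 CPM, and by -0.14 without that replicate. Slc4a1, the anion exchanger of red blood cells, differed by -2.80 (adjusted p = 0.738), with unmasked replicate 4 at 5.28 CPM and the other 4 at 0.12 to 0.647 CPM, and by -0.86 without that replicate.

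The difference between the drugs at day 7 was also set against that at day 4, as (mXTX301 minus unmasked control) at day 7 less the same at day 4. Of 15482 genes, 0 were called (0%), the smallest adjusted p was 0.258, and 1796 (11.6%) had an unadjusted p under 0.05. DESeq2 called 12, and edgeR called 366 when just the 4 groups of this contrast entered the fit. For Ifng this change was 0.57, for Cd8a -0.81 and for H2-Ab1 0.24 (log2), with edgeR adjusted p = 0.752, 0.662 and 0.864. None of the 26 panel genes and none of the members of the 48 lists was called.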

How the data were processed

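Tumour RNA was read as whole-number counts per gene, raw as deposited by the authors, for 24557 gene entries in 30 libraries; 5 repeated symbols were dropped. The submitters' processing notes name the mm10 build, HTSeq 0.11.1 as well as STAR 2.7.10a, and also edgeR 3.34.0 under R 4.1.0, FastQC 0.11.9 plus cutadapt; their settings and the strandedness are not given in the sources used here, so reads of overlapping genes on opposite strands cannot be told apart.

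Here, R 4.3.3 and edgeR 4.0.16 were used. filterByExpr kept 15482 genes, and TMM factors and 1 mean per group (6 groups) were fitted to all 30 libraries with robust quasi-likelihood dispersions, with 24 residual degrees of freedom. Contrasts were adjusted with the Benjamini-Hochberg method over all genes and called at an adjusted p under 0.05. SE is the log2 fold change over the square root of F, and intervals are 95% t intervals on that SE. CPM values use the TMM factors, and list levels are mean log2 CPM with a prior count of 2. CPM is not per length, so levels are not compared between genes. Replicates were separate mice. No replicate term entered these contrasts. The script was tested on simulated data. Alternatives with limma 3.58.1 and DESeq2 1.42.0, other scalings, filters and left-out libraries are given in the closing section.

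The comparison, the 48 lists and the panel of 26 genes were chosen with earlier results of these data known. The rule named the panel, the called genes with the largest differences and called list members; since no gene was called, every named gene outside the panel (the 12 smallest p, the smallest p of a list, list extremes and examples, S100a9) was chosen after its values were seen. Values of 1 gene are not reported here. Gene coordinates are RefSeq's on GRCm38.p6 (mm10).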

Additional observations from a re-analysis of the deposited data

Results flagged for a closer look

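A library was marked when its gap to the nearest of the other 4 of its group was over 0.71 of the group's whole range (Dixon's ratio). This was asked of 85 named genes and 48 list levels in 3 day 7 groups and of depth, 402 groups of 5 in all, and 39 were marked. The cut marks about 1 in 20 groups when values are normally distributed. Genes were taken on the plain CPM scale and many were chosen after their values were seen, so the 39 cannot be set against that rate. Many of these measures also share cells and libraries. CPM is given for genes and mean log2 CPM for lists.

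Replicate 5 of mXTX301 was the high library for Aplnr at 22.6, Lrrc32 at 22.6, Mgl2 at 4.88, Kmo at 3.09, Cd209a at 3.35, Sox17 at 3.54, Nr4a1 at 39.5 and Scd1 at 430 CPM, and for the imprinted list level at 2.81. Replicate 2 of mXTX301 was the low library for Ciita at 32.1 CPM and for the interferon-gamma response level at 6.99. The same library was high for Fdft1 at 110.1 and Trib3 at 219 CPM, and for the type I interferon response level at 7.09. Replicate 4 of mXTX301 was high for Cd8a at 44.5 and Ctsw at 21 CPM.

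Replicate 4 of the unmasked control was high for Apol11b at 13.1, Slc4a1 at 5.28, Mgl2 at 2.09 and Cd209a at 0.286 CPM, for the erythroid level at 3.91 and for the B cell and plasma cell level at 1.46. Replicate 1 of the unmasked control was high for Hif3a at 5.53 CPM and low for the regulatory T cell level at 0.731 and the endothelium level at 2.88. Replicate 5 of the unmasked control was high for Gzmb at 33.9, Tnfsf4 at 1.44 and Krt16 at 148 CPM and low for Usf1 at 81.5 CPM.

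Among vehicle tumours, replicate 5 was high for S100a8 at 5.25, S100a9 at 6.82, Krt16 at 298 and Sit1 at 1.2 CPM. Replicate 3 was high for Arg1 at 53.2 and Sparc at 1004 CPM and for the alternatively activated macrophage level at 4.07. Replicate 2 was high for Mgl2 at 1.25 and Fdft1 at 120.1 CPM, and replicate 1 was low for the mast cell level at -1.16.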

How the results depend on the processing

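Precision rests on 5 mice a group: the 95% interval reached 0.24 either side of the log2 difference in the median gene. Total counts kept their direction and side of the threshold in every setting run. Genes called between the drugs at day 7 numbered 0 with RLE or upper quartile factors, limma-voom, either other low-count filter, only the 10 libraries, no skin-rich libraries, skin level as a covariate, or an adjusted p under 0.1 (the last chosen after seeing the data, as were the settings with unadjusted p and without the libraries lowest in MHC class II genes, which also gave 0). DESeq2 called 14, 7 in each direction, and an unadjusted p under 0.05 called 898. Without 1 library at a time the count was 0 to 5, with 5 (Slc47a1, Tdrd3, Wdhd1, Pde12 and Ceacam20) without mXTX301 replicate 3. The change from day 4 was called for 12 genes by DESeq2 and 366 with only its groups in the fit; the cause was not tested. DESeq2 called 1 list gene, Retnlg.

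Replicate numbers gave mixed values as a pairing of the drug groups. Over 2000 genes, the correlations of same-numbered libraries were -0.355, 0.354, 0.595, 0.47 and -0.501 for replicates 1 to 5. The mean correlations with other numbers were 0.046, -0.055, -0.18, -0.087 and 0.156. Replicates 3 and 4 correlated best with their own number. With the replicate block 0 genes were called between the drugs, and Gzmb against vehicle was -0.019 for the unmasked control.

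Intervals within 2-fold numbered 9 of 26 panel genes without the skin-rich libraries and 14 with them. The smaller fit had fewer libraries in each drug group, so skin and the number of libraries cannot be told apart there. Sign changes (log2) were of uncalled values. Without the skin-rich libraries, Cxcl10 was -0.039, Ido1 -0.10, Cd4 0.026 and Nos2 -0.011 between the drugs, Ncr1 -0.14 for mXTX301 against vehicle and Gzmb -0.38 for the unmasked control against vehicle, where the skin covariate gave -0.10. With limma-voom Cd4 was 0.13, and Foxp3 -0.12 for the unmasked control against vehicle. Without the libraries lowest in MHC class II genes Foxp3 was -0.23. Leaving out 1 library at a time, the difference between the drugs ran from -0.029 to 0.22 for Cxcl9, -0.00889 to 0.19 for Cxcl10, -0.041 to 0.18 for Cd274, -0.061 to 0.19 for Ido1, -0.41 to 0.089 for Cd4, -0.22 to 0.33 for Foxp3, -0.20 to 0.30 for Il10, -0.22 to 0.093 for Mest, -0.10 to 0.47 for Lrrc32 and -0.16 to 2.54 for Mgl2, the last lowest without mXTX301 replicate 5. Likewise for mXTX301 against vehicle it ran from -0.0152 to 0.49 for Foxp3, -0.45 to 0.12 for Gzmb, -0.050 to 0.53 for Ncr1 and -0.21 to 0.55 for Aplnr, and for the unmasked control against vehicle from -0.16 to 0.43 for Foxp3 and from -0.18 to 0.34 for Gzmb.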
